A study of Caenorhabditis elegans with 2 samples.

Results

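Cuticle collagen genes encode the structural proteins of the nematode cuticle, the extracellular coat that the epidermis secretes from its apical surface and replaces at each moult. The set described here held the protein-coding genes of Caenorhabditis elegans named col- followed by digits (156 genes) and 19 genes known by mutant names (dpy, sqt, rol, bli and lon), which gave 175 of the 19973 nuclear protein-coding genes of the Ensembl annotation. Of the 19, 6 encode collagens of the annular furrows, the circumferential grooves of the cuticle (dpy-2, dpy-3, dpy-7, dpy-8, dpy-9 and dpy-10). The rule uses names and no peak value.

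Cuticle collagens are short secreted proteins built on repeats in which glycine is followed by a pair of other residues, often proline. Their chains are hydroxylated and disulfide-bonded in the endoplasmic reticulum, cleaved by proteases, assembled as trimers and cross-linked in the matrix. Transcription of different members peaks at different stages and at different points of a moult, and the cuticle of the hatching larva is made in the late embryo.

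Chromatin immunoprecipitation followed by sequencing (ChIP-seq) recovers DNA bound by a chosen protein, here a tagged FKH-10, a transcription factor of the forkhead family. There was 1 group of 2 biological replicates, made from whole late embryos of mixed sex and unknown age. Their strain is labelled OP337, carries the unc119(ed3) mutation and holds the insertion wgIs377, a transgene of fkh-10 joined to TY1, EGFP and FLAG tags with unc119 as its rescue marker. Strain and insertion numbers in that label differ, so the samples are called the libraries labelled eGFP-FKH-10. The promoter of the transgene is not stated in the labels, no untagged strain was analysed here, and 1 shared control served both replicates. Peaks from whole animals cannot be assigned to the epidermis or to any other cell type. Read depth is unknown, because the deposited peak lists hold no counts, and the design has no second condition, so shares of members are set beside shares of all other protein-coding genes without a test.

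The lists on the ce11 build were a list thresholded on agreement between replicates (378 peaks), a relaxed list from the pooled replicates (7443 peaks) and a relaxed list from each replicate (27900 and 30000 peaks). Relaxed lists are deposited as peaks and background together, so a summit in them is a position of locally high signal and not a called site. The pooled list contains the reads of both replicates, so these lists do not support each other independently. A summit is the deposited highest point of a peak, and the signal is the authors' peak height, on a scale that neither labels nor files state, and it is compared only within a list. A percentile below is the share of nuclear peaks of the same list with a signal at or below that peak. The promoter window of a gene ran from 1000 bp upstream to 500 bp downstream of its annotated 5' end. Many C. elegans transcripts are trans-spliced, so that end need not be the start of transcription.

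The names were checked against the coding letters. Glycine codons made up 20.3% and proline codons 15.1% of the 57321 codons of the members, against 5.25% and 4.84% in other genes. Of the 175 members, 2 had fewer than 10% glycine codons. These were bli-1 (9.70%), a strut collagen of the adult cuticle, and col-17, with 0.722% of 277 codons. The col-17 share was also below the median of other genes (4.83%). Whether it reflects the gene or the frame in which its letters were read was not tested. col-17 had no summit in its promoter window or coding sequence in any list.

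In the deposited lists, cuticle collagen promoters held summits about as often as other promoters or less often. In the thresholded list 1 member had a summit in its window (0.571%), where 0.980% of other genes had one, a share that would give 1.71 members. In the pooled list 20 members did (11.4%), against 13.3% of other genes, which would give 23.2. In replicate 1 there were 58 members (33.1%), against 39.7%, and in replicate 2 there were 70 (40.0%), against 40.0%. Summits in both replicates were found for 30 members (17.1%), against 20.0% of other genes, where 34.9 members would equal that share. Expected numbers formed chromosome by chromosome differed little, at 23.2 for the pooled list, 69.5 and 69.3 for replicates 1 and 2 and 34.7 for both. When the strongest peaks of 1 replicate stood in for the joint lists, the thresholded member was lost without replicate 2, and the pooled count was 19 without replicate 2 (10.9%, other genes 13%) and 28 without replicate 1 (16%, other genes 12.5%), so the side of the background on which members fell depended on the replicate.

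**Figure D1:**
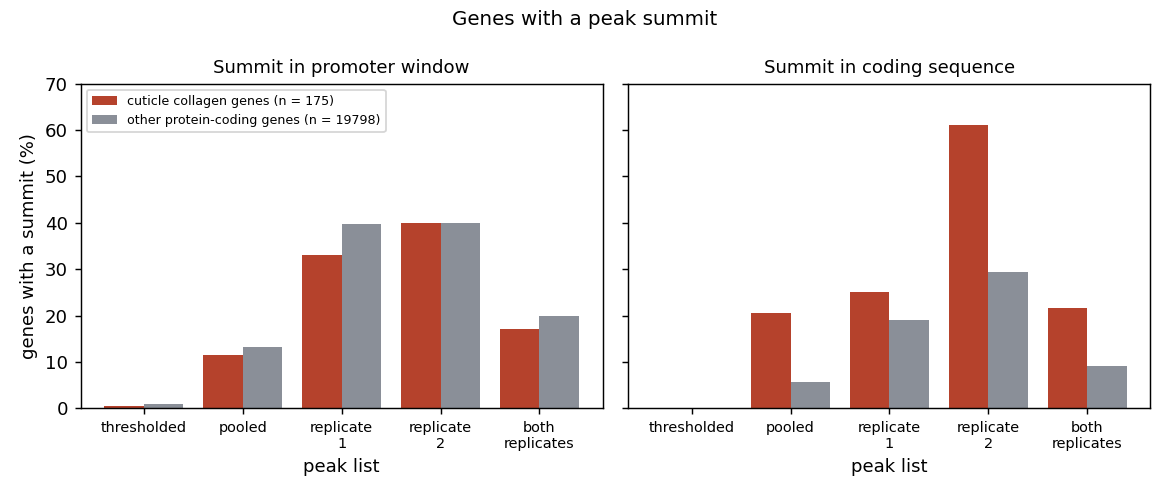
Percentage of the 175 cuticle collagen genes (red) and of the 19798 other protein-coding genes (grey) with a summit in the promoter window (left) or in the coding sequence (right), for each peak list and for both replicate lists together. In promoter windows the red bars are level with the grey ones or below them, and in coding sequence the pooled (20.6% against 5.70%) and replicate 2 (61.1% against 29.4%) bars stand apart.

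The members with a promoter summit were only partly shared by the replicates. A summit in replicate 1 alone of the replicates was found for 28 members (16%, other genes 19.7%). In replicate 2 alone the count was 40 (22.9%, other genes 20%), and 77 members (44.0%) had none in any list, against 40.1% of other genes. Of the members with a summit in replicate 1, 51.7% also had one in replicate 2 (50.3% among other genes), and in the other direction the share was 42.9% (49.9%). Of the 20 members in the pooled list, 14 had a summit in both replicates and 6 in 1 replicate. Among the 2630 other genes in that list, 1933 had one in both, 667 in 1 replicate and 30 in neither. Where both replicates had a summit, the nearest pair lay a median of 166 bp apart (range 9 to 1161 bp), and 15 of the 30 pairs (50%) lay within 200 bp, against 57.3% of 3950 other genes.

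By median, signals at member promoters were below those of other genes in the pooled list and slightly above them in the replicate lists. The highest pooled summit of a member had a median signal of 19 (percentile 47.1, range 16.3 to 46.0), against 20.2 (percentile 59.0) for other genes with a summit. Of the 20 members, 1 (5%) reached the top 10% of the list, against 14.8% of other genes with a summit. Replicate 1 gave a median of 10.3 (percentile 59.3) for members and 10.1 (57.1) for other genes. Replicate 2 gave 7.54 (62.0) for members and 7.21 (57.1) for other genes. In replicate 1, 11 of 58 members lay in the top 10% (19%, other genes 14%), and in replicate 2 the count was 9 of 70 (12.9%, other genes 13.8%).

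The single thresholded summit was at col-85 (WBGene00000660), on the minus strand of chromosome II from 12493703 to 12495095. It lay 302 bp inside the 5' end with a signal of 46.0, and the replicate summits in the window reached 19.4 in replicate 1 (percentile 97.7) and 25.5 in replicate 2 (99.5). The position is an intron of col-85, between the exons ending at 12494579 and starting at 12494888, and the intron also holds a tRNA-Ile gene on the opposite strand (T21B4.t1, 12494741 to 12494814, 74 bp) and an annotated non-coding RNA, T21B4.19. The summit thus lies inside the tRNA gene. When peaks within 100 bp of tRNA, snoRNA or snRNA genes were left out, an alternative chosen after seeing the data, 0 of 175 members had a thresholded summit, against 0.894% of other genes. The same step left 19 members in the pooled list (10.9%, other genes 13%) and 57 in replicate 1 (32.6%, other genes 39.4%). It left 69 in replicate 2 (39.4%, other genes 39.6%) and 29 in both (16.6%, other genes 19.6%). The 151 bases around this summit and around the highest pooled summit of a member that lay in intergenic sequence off tRNA genes and nearest its own 5' end, that of col-151, are shown to set a summit on an RNA gene beside one at a collagen promoter. Letters are from the RefSeq sequence of WBcel235, the assembly of the ce11 build, written 5' to 3' in lower case. Capitals mark the tRNA gene, col-85 is given on the plus strand (chrII:12494718-12494868, the strand of the tRNA), and col-151 on its own minus strand (chrV:10395232-10395382).
col-85: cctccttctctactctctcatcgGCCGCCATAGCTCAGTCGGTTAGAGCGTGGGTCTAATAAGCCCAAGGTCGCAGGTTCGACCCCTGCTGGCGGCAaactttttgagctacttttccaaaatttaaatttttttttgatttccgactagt
col-151: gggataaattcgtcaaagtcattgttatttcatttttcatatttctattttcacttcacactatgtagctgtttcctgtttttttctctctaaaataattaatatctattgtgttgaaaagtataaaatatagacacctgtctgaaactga

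Among col- genes the next promoter-window signals in the pooled list were those of col-38, col-151, col-55, col-186 and col-125, genes for cuticle collagens with no mutant name. At col-38 (chromosome II) the pooled summit had a signal of 27.8 and lay 424 bp upstream of the 5' end, and the replicates gave 19.2 and 7.35. This summit was nearer to the 5' end of rpl-5, a ribosomal protein gene, at 415 bp, and lay in the non-coding RNAs F54C9.16 and F54C9.17, so it cannot be assigned to col-38 by position. At col-151 (chromosome V) the signal was 24.8, 84 bp upstream. The highest replicate summits were 18.5 in replicate 1, 15 bp upstream, and 11.2 in replicate 2, 118 bp downstream in coding sequence. Both were above the 90th percentile of their lists (97.1 and 90.5). The upstream summits of replicate 2 in this window had signals of only 6.97 and 6.72, where the median of that list was 6.80.

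At col-186 (X) the pooled signal was 23, 9 bp inside the 5' end, with 14.9 in replicate 1 and no summit in replicate 2. At col-125 (IV) it was 20.8, 542 bp upstream, with 19.2 in replicate 1 and again none in replicate 2. These members, with sqt-3, col-93, col-98 and col-122, make up the 6 in the pooled list whose window had a summit in 1 replicate only. That was replicate 1 for all but col-122. A window with summits in both replicates did not always have both beside the pooled one. The pooled summit of col-138 lay 291 bp downstream, and its replicate 1 summits lay 581 and 859 bp upstream.

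A pair of pooled summits lay in the windows of col-150 and col-139. At col-150 (V) summits lay 833 bp upstream (signal 19.6) and 291 bp downstream (16.9), and at col-139 (V) 472 bp upstream (18.9) and 380 bp downstream (17.7), the former nearer to F41F3.1 (112 bp). The highest replicate summits of these genes were not at 1 place. At col-150 they were 12.3 in replicate 1 at 283 bp downstream and 8.35 in replicate 2 at 827 bp upstream. Replicate 1 also had a lower col-150 summit 855 bp upstream (9.39), 28 bp from that of replicate 2. At col-139 the highest replicate summits were 18.7 in replicate 1 at 471 bp upstream and 8.13 in replicate 2 at 395 bp downstream. Upstream summits were also found at col-89 (956 bp, 19.4), col-83 (654 bp, 17.6), col-93 (558 bp, 17.2), col-98 (884 bp, 16.8), col-131 (54 bp, 16.7) and col-95 (441 bp, 16.4). Downstream ones lay at col-122 (455 bp, 19), col-75 (324 bp, 17) and col-138 (291 bp, 16.3). Among members outside the pooled list, col-87 (10.3 and 8.80), col-106 (14.7 and 7.11) and col-103 (9.60 and 8.90) had the highest signals in both replicates by the lower of the 2 percentiles, at replicate summits 723, 499 and 793 bp apart.

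**Figure D2:**
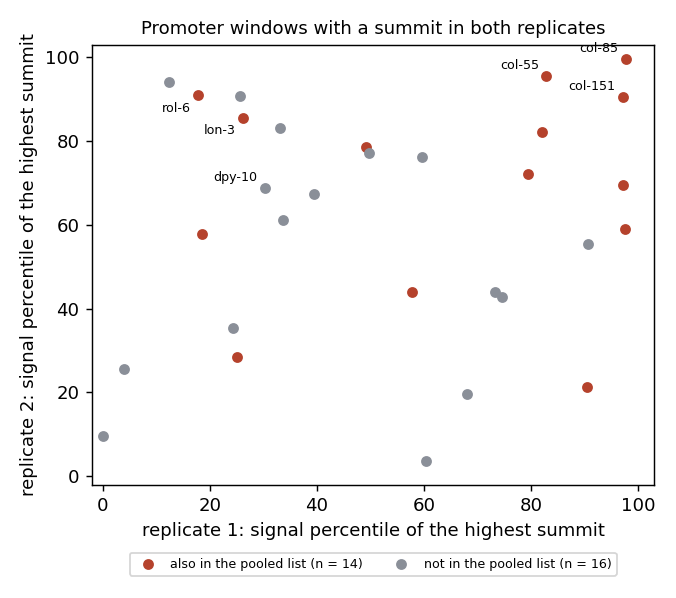
Signal percentile of the highest promoter-window summit in replicate 1 (horizontal) and replicate 2 (vertical) for the 30 cuticle collagen genes with a summit in both, in red where the pooled list also has one (n = 14) and in grey where it does not (n = 16). col-85 (97.7 and 99.5) and col-151 (97.1 and 90.5) lie in the upper right, and rol-6, lon-3 and dpy-10 rank higher in replicate 2 than in replicate 1.

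Of the 19 members known by mutant names, 3 had a pooled promoter summit (15.8%, other genes 13.3%), 8 one in replicate 1 (42.1%, other genes 39.7%) and 6 one in replicate 2 (31.6%, other genes 40.0%). The pooled ones were sqt-3, rol-6 and lon-3. At sqt-3, a collagen needed for body shape from the embryo on, the summit lay in the 5' untranslated region, 93 bp inside the 5' end, with a signal of 20.7, and replicate 1 gave 12.9 and replicate 2 none. At rol-6, whose dominant allele makes animals roll and serves as a transformation marker, it lay 349 bp inside the gene (18.9, with 7.94 and 11.3 in the replicates). At lon-3, mutants of which are long, it lay 300 bp inside the gene (17, with 8.31 and 10.1), in an intron of ogdh-2 as well.

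The furrow collagens had 0 of 6 in the thresholded and pooled lists, where 0.980% and 13.3% of other genes had a summit, shares at which fewer than 1 of the 6 would have one. dpy-10 had a summit in both replicates (8.52, 484 bp downstream, and 8.04, 21 bp upstream), dpy-3 one in replicate 1 (12.4, 866 bp upstream), and dpy-2, dpy-7, dpy-8 and dpy-9 none. Replicate 1 alone of the replicates had summits at dpy-4 (14.7), dpy-17 (10.7) and rol-8 (9.87), and replicate 2 alone at sqt-1 (10.5), dpy-13 (9.47) and bli-1 (7.58). bli-2, dpy-5, dpy-14 and sqt-2 had no promoter summit in any list. Furrow genes and the other named genes thus had summits scattered over the lists, and these small counts give no order between the classes.

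Genes that act with the collagens were described in the same way, from lists set by function. Of 17 genes for collagen processing and cross-linking, 4 had a pooled summit (23.5%, against 13.3% of genes that are not cuticle collagens). In replicate 1 and in replicate 2, 10 had one each (58.8%, against 39.7% and 40.0%), and 4 had one in both (23.5%, against 20.0%). The 4 pooled summits were at bli-4, a proprotein convertase (signal 24.1, 154 bp upstream), pdi-2, a protein disulfide isomerase that is a subunit of prolyl 4-hydroxylase (21.9, 821 bp upstream), pdi-3, another disulfide isomerase (18.3, 54 bp upstream), and dpy-31, a procollagen C-proteinase (16.2, 31 bp upstream). Of 45 cuticlin, zona pellucida and other matrix genes, 6 had a pooled summit (13.3%). The highest were at the cuticlin-like genes cutl-7 (18.6), cutl-25 (18.5), cutl-10 (18) and cutl-8 (17.9). Of the 45, 42.2% had a summit in replicate 1, 33.3% in replicate 2 and 15.6% in both. Of 22 regulators of the epidermis and moulting, 31.8% had a summit in replicate 1, 40.9% in replicate 2 and 18.2% in both. A pooled summit was found at 3 of them (13.6%). These were lin-42, a period homologue that times moults (23.4, 437 bp downstream), nhr-23, a nuclear receptor needed for moulting (17.1, 11 bp upstream), and sma-9, a Schnurri homologue in the body size pathway (16.8, 669 bp upstream). Of 3 basement membrane and other collagen genes, cle-1, a collagen of the type XV and XVIII class, had a pooled summit (18.3, 97 bp downstream). Of these 3 genes, 2 had a summit in both replicates. None of the 17, 45, 22 or 3 genes of these lists had a thresholded summit, where 0.980% of genes that are not cuticle collagens had one. At a share that low, lists of these sizes cannot show a shortage.

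The position of member summits differed from that at other genes. In the pooled list the 500 bp just upstream of the 5' end held 2.86 summits per 100 members and 7.10 per 100 other genes, whereas the stretch from 251 to 500 bp downstream held 4.57 (8 summits) and 1.46 (289 summits). Summits downstream of the 5' end made up 45.5% of the pooled window summits of members and 22.2% of those of other genes. For replicate 2 these shares were 43.7% and 31.7%, and for replicate 1 they were 29.4% and 27.6%. The upstream stretch was also sparser at members in replicate 1 (11.4 against 18.8 per 100 genes) and in replicate 2 (15.4 against 18.7). Letters around downstream summits of members held more G and C (median 47.3% in the pooled list) than those around upstream ones (34.6%), where other genes had 40.0% and 38.8%.

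**Figure D3:**
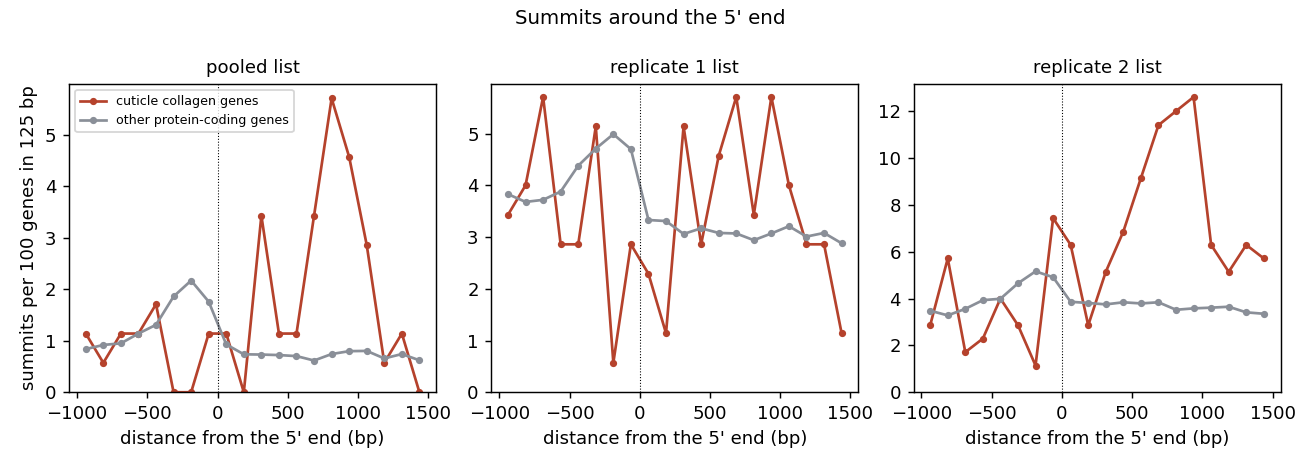
Summits per 100 genes in bins of 125 bp (vertical) by distance from the annotated 5' end in bp (horizontal, negative upstream) for cuticle collagen genes (red) and other protein-coding genes (grey), in the pooled, replicate 1 and replicate 2 lists, each with its own vertical scale. Other genes peak just upstream of the 5' end (2.17 in the pooled list). Members reach 5.71 at 750 to 874 bp downstream in the pooled list and 12.6 at 875 to 999 bp in replicate 2. In replicate 1 the highest member value, 5.71, occurs at 750 to 626 bp upstream and at 625 to 749 and 875 to 999 bp downstream.

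Because the excess continued past the window, summits were also counted over coding sequence, a measure chosen after seeing the data. Coding sequence of members (172 kb) held 38 pooled summits, or 221 per Mb, against 51.1 per Mb in the coding sequence of other genes, a ratio of 4.32. Replicate 2 gave 140 summits (814 against 325 per Mb, ratio 2.50) and replicate 1 gave 46 (267 against 180, ratio 1.48). When the strongest peaks of 1 replicate stood in for the pooled list at the same length, the ratio was 1.91 without replicate 2 (13 summits) and 4.41 without replicate 1 (60 summits), so the size of the pooled ratio rests on replicate 2. The thresholded list had 0 summits in member coding sequence, against 1.14 per Mb in other genes, and the strongest peaks of either replicate, taken at the length of the thresholded list, also had 0.

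Counted by gene, 36 members had a pooled coding summit (20.6%), against 5.70% of other genes. The counts were 44 in replicate 1 (25.1%, against 19%), 107 in replicate 2 (61.1%, against 29.4%) and 38 in both replicates (21.7%, against 9.07%), and 0 in the thresholded list, against 0.0960%. Median coding lengths were similar, at 912 bp for members and 990 bp for other genes. Member introns held 143 pooled summits per Mb (9 summits), against 75.7 in other introns. The 500 bp upstream of members, outside exons, held 66.4 (5 summits), against 137. Density in member coding sequence was above that of other genes on each of the 6 chromosomes in the pooled and both replicate lists.

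The coding summits of members were spread along the coding sequence, with the fewest in its first part. These positions were not counted for other genes, so they are not shown to be particular to members. In the pooled list 6 of the 38 fell in the first, 16 in the middle and 16 in the last of 3 equal stretches of the coding sequence, and 32 of them lay beyond the promoter window. The 3 stretches held 8, 23 and 15 summits in replicate 1 and 27, 59 and 54 in replicate 2. Signals were moderate, with a pooled median of 19.6 and a maximum of 29.8 (percentile 90.7). A replicate 1 summit lay within 200 bp of 25 of the pooled ones (65.8%, against 78.2% in other genes) and a replicate 2 summit within 200 bp of 34 (89.5%, against 76.0%).

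Of the highest pooled coding summits, those of bli-2, col-131, dpy-4 and col-2 are shown as letters, as examples of the collagen repeat under them, and dpy-7 is added as the furrow gene with a pooled summit. The members col-2, col-177, col-81 and col-71, which have no pooled promoter summit, were singled out after their coding values were seen. At bli-2, a strut collagen of the adult cuticle (chromosome II, 5651394 to 5652434), the pooled signal was 29.8, with 11.5 in replicate 1 and 17.6 in replicate 2, and the gene lies in an intron of zyg-1. At col-131 (IV, 13065729 to 13067300) it was 26.4, with 12.5 and 16.3. At dpy-4 (IV, 14985543 to 14986784, in an intron of atln-2) it was 26.0, with 14.7 and 10.6. At col-2 (IV, 10084439 to 10085451) it was 25.4, with 18 and 7.54, so here replicate 1 was the higher by percentile (96.6 and 61.9). At dpy-7 (X, 7536467 to 7537792) it was 24.0, with none in replicate 1 and 17.4 in replicate 2. Each run has 151 bases of the RefSeq sequence of WBcel235 centred on the pooled summit, 5' to 3' on the coding strand, which is the minus strand for all 5, with glycine codons in capitals. Their positions are chrII:5651581-5651731, chrIV:13066169-13066319, chrIV:14986192-14986342, chrIV:10084789-10084939 and chrX:7536821-7536971, in the order below.
bli-2: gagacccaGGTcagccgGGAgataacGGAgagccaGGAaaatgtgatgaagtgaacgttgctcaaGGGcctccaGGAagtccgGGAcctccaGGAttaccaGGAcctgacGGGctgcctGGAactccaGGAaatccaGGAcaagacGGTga
col-131: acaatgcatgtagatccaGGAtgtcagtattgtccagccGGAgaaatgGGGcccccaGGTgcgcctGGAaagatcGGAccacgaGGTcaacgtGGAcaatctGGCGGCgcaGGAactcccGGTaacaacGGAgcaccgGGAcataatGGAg
dpy-4: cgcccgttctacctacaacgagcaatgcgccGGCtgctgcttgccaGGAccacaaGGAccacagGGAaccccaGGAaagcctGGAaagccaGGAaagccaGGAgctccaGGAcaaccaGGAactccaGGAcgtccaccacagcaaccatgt
col-2: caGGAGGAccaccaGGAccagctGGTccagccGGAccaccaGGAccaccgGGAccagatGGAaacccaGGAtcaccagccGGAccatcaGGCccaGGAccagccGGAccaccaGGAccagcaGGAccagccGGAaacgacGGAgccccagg
dpy-7: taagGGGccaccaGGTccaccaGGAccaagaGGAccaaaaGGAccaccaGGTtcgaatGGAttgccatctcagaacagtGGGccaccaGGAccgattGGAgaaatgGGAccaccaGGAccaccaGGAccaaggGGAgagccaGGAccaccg

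The runs hold 14, 15, 11, 17 and 15 glycine codons among 49 or 50 whole codons, and 13, 8, 13, 19 and 20 proline codons. G and C made up 57.6% of the bli-2 and col-131 runs, 60.3% of that of dpy-4, 68.2% of that of col-2 and 59.6% of that of dpy-7. The second highest pooled coding summit was that of col-60 (28.1, with 14 and 6.79 in the replicates), whose letters are not printed. Similar pooled signals were found at col-177 (25.8, with 8.19 and 16 in the replicates), col-81 (25.6, with 10.1 and 15.2) and col-71 (25.6, with 10.2 and 18.4). Of the 19 members with mutant names, 6 had a pooled coding summit, which besides bli-2, dpy-4 and dpy-7 were dpy-17 (21.1), rol-6 (18.9) and lon-3 (17). In replicate 2, 17 of the 19 had one, from 4.88 at dpy-5 to 17.6 at bli-2, with dpy-2 and dpy-9 as the exceptions, and in replicate 1, 7 did. Of other genes, 5.70% had a coding summit in the pooled list, 29.4% in replicate 2 and 19% in replicate 1. The rol-6 and lon-3 summits are the ones counted in their promoter windows above.

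Base composition moved with this result. Member coding sequence was 54.5% G and C, against 42.8% in other genes, and by gene the median was 55.1% (range 43.4 to 62.6%), against 42.5%. Summit density also rose with G and C among other genes, from 25.6 per Mb in the pooled list where G and C made up under 40% of the coding sequence to 159 per Mb at 55% and over. Within the class from 45 to 50% members lay above other genes in all 3 lists, with 179 against 83.8 per Mb in the pooled list, 286 against 231 in replicate 1 and 751 against 486 in replicate 2 (25 members). Within the class from 50 to 55% the pooled density was 193 per Mb in 59 members and 160 in 1431 other genes, and at 55% and over it was 251 in 88 members and 159 in 217 other genes. In replicate 2 these upper classes gave 684 against 656 and 943 against 810. In replicate 1 they gave 246 against 303 and 274 against 348, below other genes. At the density of other genes of the same class, members would hold 24.9 pooled, 53.5 replicate 1 and 120 replicate 2 coding summits, and they held 1.53, 0.860 and 1.17 times those numbers. Set against other genes of like composition, the ratios were thus smaller than 4.32 and 2.50, and in replicate 1 members fell below those genes. The highest class of other genes is small, with 21 pooled summits. What part of the difference base composition makes was not tested.

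**Figure D4:**
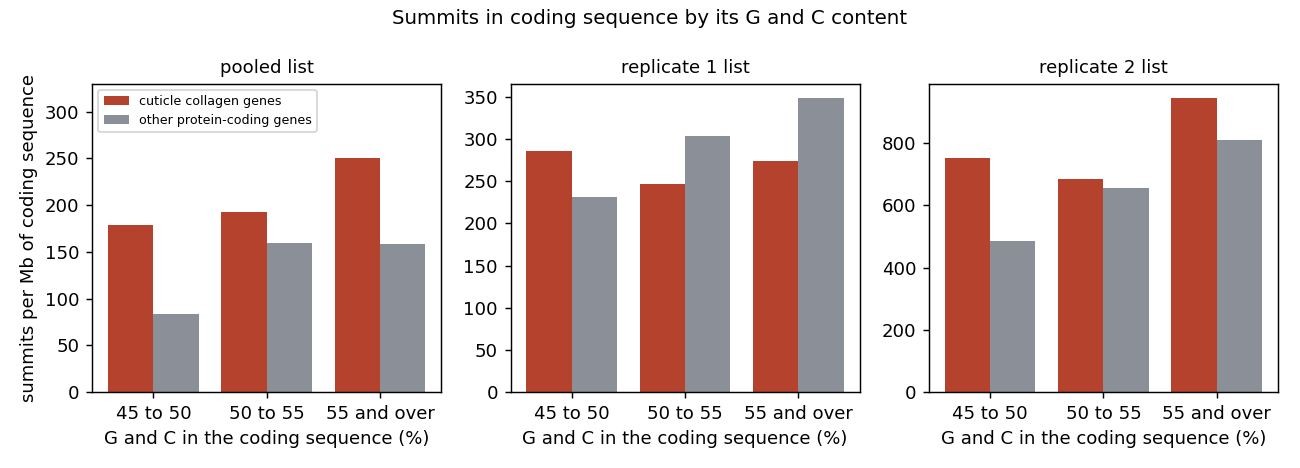
Summits per Mb of coding sequence (vertical) in genes grouped by the G and C content of their coding sequence in percent (horizontal), for cuticle collagen genes (red) and other protein-coding genes (grey), in the pooled, replicate 1 and replicate 2 lists with separate vertical scales. In the 3 classes shown, members exceed other genes in the pooled and replicate 2 lists (251 against 159 per Mb at 55% and over in the pooled list), and in replicate 1 they lie above them at 45 to 50% and below them from 50% up.

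Near-identical copies limit what can be said of part of the family. In 22 members, among them col-10, col-12, col-13, col-62, col-92, col-93, col-94 and col-166 to col-170, most words of 31 bases in the gene occur elsewhere in the genome, which holds for 12.6% of members and 4.07% of other genes. Their 19.9 kb of coding sequence held 0 summits in the pooled, replicate 1 and replicate 2 lists, and other genes of that kind held few (5.67, 18.4 and 45.4 per Mb, against 52.4, 185 and 334 in the rest). Promoter windows of these 22 members did hold summits, at 1 in the pooled list (4.55%, other genes of that kind 2.61%). Replicate 1 had them at 2 (9.09%, 12.3%), replicate 2 at 5 (22.7%, 14.4%) and both replicates at 0 (4.96%). The treatment of reads that match several places is not stated in the labels or files, so for these members no summit is no measurement of signal. Promoter windows of 14 members overlapped in 7 pairs, and 1 replicate 1 summit was counted for a pair of them.

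By chromosome, pooled promoter summits were found at 1 of 23 members on I (4.35%, other genes 17%), 5 of 32 on II (15.6%, 12%), 4 of 13 on III (30.8%, 17.1%), 4 of 44 on IV (9.09%, 12.8%), 5 of 33 on V (15.2%, 9.47%) and 1 of 30 on X (3.33%, 14.9%). The lowest shares were thus on I and X, where other genes had high shares, with counts of 1 each. The member on I was col-55, with a pooled signal of 24.4 at 679 bp upstream and 12.8 and 13.6 in the replicates (percentiles 82.8 and 95.5). Its replicate summits lay 104 bp apart.

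Promoter letters were compared from 250 bp upstream to 50 bp downstream of the 5' end, on both strands. Forkhead factors bind variants of 1 core. The variant GTAAACA was present in 5.14% of member promoters and 4.77% of those of other genes, the variant ATAAACA in 6.86% and 9.52%, the variant GTAAATA in 4% and 6.76%, and the variant ATAAATA in 15.4% and 18.8%. Any of the 4 was present in 27.4% of member promoters and 34.0% of others. Of words of the GATA type, TTATCA was present in 29.7% and 30.2%. The longer CTTATCA, which contains it, was present in 13.1% and 9.16%. The word AGATAA was present in 28.6% and 21.1%. Member promoters held more G and C (median 38.0%, other genes 34.3%). A word is no binding site, and these shares were not tied to the peaks.

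Strong peaks lay near a few members outside their windows. At col-181 (X, 12104930 to 12106102) a thresholded summit with a signal of 54.9 lay 1315 bp from the 5' end, beyond the far end of the gene, and the 5' end of col-181 was the nearest. At col-128 (IV) a thresholded summit with a signal of 67.4 lay 2049 bp from the 5' end, nearer to that of M04B2.7 (1140 bp). A thresholded summit with a signal of 57.5 lay 1888 bp upstream of col-94 (III), in the snRNA gene R07E5.16, and the col-94 5' end was the nearest. The same summit lay farther upstream of col-93. Others lay near col-101 (41.8, in a tRNA gene), col-109 (44.2) and col-83 (45.6), each nearer to the 5' end of another gene. All were chosen after their values were seen, and the share of other genes with such a peak is not given here.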

How the data were processed

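Peak lists from 2 libraries were used. The authors, per the deposited file lists, aligned both replicates and a control to ce10 and ce11, called relaxed lists for each replicate and for both pooled, and thresholded the latter by the irreproducible discovery rate. The peak caller is not given in the sources used. The deposited signal is the authors' peak height and was used within a list only. The summit is the peak start plus the deposited offset, and coordinates are 1-based on ce11, whose assembly is WBcel235. The ce10 lists were not used here.

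Genes came from Ensembl release 115 and letters from RefSeq. A gene was counted when a nuclear summit lay in its window or its coding sequence. Named are members with a thresholded or pooled promoter summit, the 19 with mutant names, up to 10 others with the highest signals in both replicates, and up to 4 genes of each related list. Genes named otherwise, the coding counts, the copy check and the RNA gene check were chosen after seeing the data. Members and lists were chosen with earlier results of these data known. bus-8 of the matrix list had no entry under that name. With no second condition, no test was made, and with no counts, the precision that depth gives is unknown. On simulated data, 200 of 200 planted summits were recovered over 19973 genes. Python 3.11.15, numpy 2.4.6, pandas 2.3.3 and matplotlib 3.10.9 were used.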

Additional observations from a re-analysis of the deposited data

How the results depend on the processing

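No paired analysis was possible because there was 1 group. Restricting lists to peaks above their median signal left 9 members in the pooled list (5.14%, other genes 7.72%), 33 in replicate 1 (18.9%, 22.7%), 40 in replicate 2 (22.9%, 22.7%) and 9 in both (5.14%, 8.40%). A window of 500 bp to either side left 37 in replicate 1 (21.1%, 28.9%), 58 in replicate 2 (33.1%, 30.5%, members above) and 15 in both (8.57%, 12.7%). In both replicates, lists limited to the pooled length left 4 members (2.29%, 3.98%), and requiring summits within 200 bp left 15 (8.57%, 11.4%). Without peaks at tRNA, snoRNA or snRNA genes the thresholded count was 0. With the strongest peaks of 1 replicate in place of the joint lists, the thresholded count ranged from 0 (without replicate 2) to 1 and the pooled count from 19 (10.9%, other genes 13%) to 28 without replicate 1 (16%, 12.5%), which puts members above the background.

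Member shares in replicate 2 also lay above those of other genes for any overlap of peak and window (50.9%, 45.8%) and for 1 gene per peak (38.3%, 34.8%), and below them for 2000 bp upstream (40.6%, 47.5%). Leaving out col-99, a transmembrane collagen, changed no promoter count. It held 2 of the 38 pooled coding summits, and coding counts were not recomputed without it. The coding ratio of the pooled list was 3.74 over exons, 5 above the median signal and 4.89 without repeated members. The ratio of replicate 2 was 4.41 at the pooled length. The cause of each change was not tested. Unknown depth limits every count of 0.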
